A study of Mus musculus with 19 samples.

Results

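The comparison described here set CMPs that expressed sh20, an shRNA against the long non-coding RNA *Spehd*, against CMPs that expressed a control shRNA against *Renilla* luciferase, which has no target in mouse cells. Its libraries were taken by their knockdown and cell type labels, which gave 2 sh20 libraries (replicates B and C) and 4 *Renilla* libraries (A, B, C and D) of the 19 libraries in the series, with counts for 54352 genes in each. CMPs are common myeloid progenitors. The donor strain was C57BL6, and purified stem cells were transduced with a lentivirus in which doxycycline switches on the shRNA together with zsGreen, then transplanted into sublethally irradiated recipients that kept blood cells of their own. After 10 weeks of reconstitution and 6 days of doxycycline in the food, given to sh20 and *Renilla* animals alike, zsGreen+ cells were sorted from bone marrow as Lin- Sca1- cKit+ cells within the CD34 and FcγR gate of CMPs. Bone marrow cells within the Lin- Sca1+ cKit+ gate, called LSK cells and containing the stem cells, gave 3 sh20 libraries and 4 *Renilla* libraries under the same schedule. These served for a test of whether an sh20 effect differed between the cell types, and for sh20 against *Renilla* within LSK cells. How many animals stood behind each library was not given in the sources used here, so p-values measure the spread between libraries. No second sequence against *Spehd* entered these tests, so what belongs to the loss of *Spehd* and what belongs to the sh20 sequence cannot be told apart in this comparison.

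CMPs stand between stem cells and the committed myeloid lines. They give rise to granulocyte and monocyte progenitors on one side and to megakaryocyte and erythroid progenitors on the other. The change from stem cell to progenitor is known to go with a move from glycolysis toward oxidative phosphorylation, in which complexes I to IV of the inner mitochondrial membrane pump protons and the ATP synthase uses the gradient. Immediate early genes such as those of the AP-1 family (Jun and Fos proteins) are transcribed within minutes of a growth factor signal or of stress, and their transcripts are short-lived. Cytokine receptors such as the G-CSF receptor (*Csf3r*) tie progenitors to the signals that set their output.

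The guide strands, read 5′ to 3′, show what each group carried. Capitals mark the seed, bases 2 to 8, with which a guide can also pair with other transcripts.
sh20 guide: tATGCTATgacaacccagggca
Renilla guide: tAGATAAGcattataattccta
The perfect target of the sh20 guide, tgccctgggttgtcatagcata, was found in 0 of 141767 transcripts of GENCODE vM21, and the closest transcript had 4 mismatches. The *Renilla* guide gave the same numbers, 0 exact matches and 4 mismatches in the closest transcript. No *Spehd* transcript was at hand to search, so the intended site of the sh20 guide was not placed. No counted gene is named *Spehd*, so the knockdown itself was not measured in these libraries.

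The sh20 libraries were deeper than the *Renilla* libraries and stood apart from each other. The sh20 libraries held 5965155 and 5680969 counts on genes, and the *Renilla* libraries 3857980, 4191537, 4314959 and 4078804. The ratio of the means was 1.42, and the exact permutation test gave p = 0.0667 (two-sided), the smallest that 15 splits of 6 libraries allow. Fewer genes had at least 1 count in sh20, 17174 and 18066 against 18552 to 20173, although these libraries were deeper (exact permutation p = 0.133). With every library thinned to 3857980 counts the numbers were 16254 and 17241 against 18416 to 19904 (exact permutation p = 0.0667). Of 10193 genes averaging 50 counts or more that were also among those tested over all genes, 419 were over 4-fold apart between the sh20 replicates, whereas 17 to 65 were between any pair of *Renilla* libraries. Replicate B differed from the *Renilla* libraries at 331 to 420 genes and replicate C at 117 to 148. No pair of libraries was a duplicate: chi-square per degree of freedom was 27.8 between the sh20 replicates and 5.64 to 8.07 between *Renilla* libraries.

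**Figure D1:**
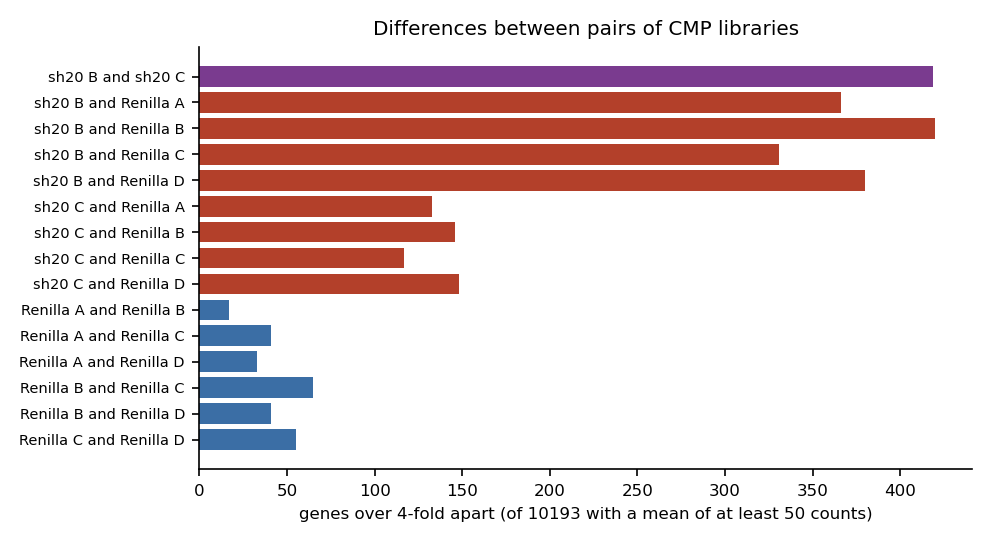
Number of genes over 4-fold apart in CPM (horizontal axis) for each pair of the 6 CMP libraries, over the 10193 tested genes that averaged 50 counts or more. The 2 sh20 replicates differed from each other at 419 genes and sh20 B differed from the *Renilla* libraries at 331 to 420, against 17 to 65 within *Renilla*.

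Markers of other blood cells differed between the sh20 replicates. The 5 monocyte and macrophage markers summed to 199 and 168 CPM (counts scaled to the library total) in sh20 B and C and to 122, 61.6, 146 and 81.2 CPM in the *Renilla* libraries, but through different genes. *F13a1*, a coagulation factor subunit made by monocytes, stood at 8.33 CPM in B and 84.7 CPM in C, against 7.52 to 10.5 CPM in *Renilla*. *Adgre1* (F4/80) stood at 49.99 CPM in B and 8.63 CPM in C, against 1.46 to 25.4 CPM, and *Cd68* at 85.2 and 29.6 CPM against 16.3 to 44.1 CPM. *Cd300e*, a receptor of monocytes chosen after its values were seen, had 507 counts in B and 3 in C, against 51, 22, 179 and 3 in *Renilla*. Several genes of the B lineage were high in replicate C alone among these 6 libraries: *Igll1*, the surrogate light chain, had 513 counts, *Ebf1* 234 and *Cd79a* 206, where no other of these 6 libraries passed 4 counts of any of these genes. *Mecom*, a transcription factor of stem cells, was at 2.38 CPM in B and 37.2 CPM in C, against 31.2 to 40.9 CPM. The 7 mature neutrophil markers summed to 4.69 and 10.2 CPM against 1.91 to 10.3 CPM, near 0 in every library, and none passed the filter on low counts. The part of these cells in the results was not tested, and here as in every bulk sample fewer cells of a type and less RNA per cell cannot be told apart.

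The gate markers fitted a Sca1- cKit+ sort in both groups. *Ly6a*, which encodes Sca1, stood at 9.94 and 1.59 CPM in sh20 B and C, on either side of 3.17 to 7.58 CPM in *Renilla* CMPs, against means of 65.8 and 50.7 CPM in LSK cells of the same 2 shRNAs (CPM from the fit of 13 libraries). Its log2 fold change was -1.69 without sh20 B and 0.93 without sh20 C. *Kit* was present in every library, at 448 and 643 CPM in sh20 and 707, 798, 683 and 639 CPM in *Renilla* CMPs, with a log2 fold change of -0.37 ± 0.15 (SE) that did not pass edgeR's test (Benjamini-Hochberg adjusted p = 0.234). *Fcgr3*, the FcγR of the gate, stood at 30.1 and 17.6 CPM against 7.77 to 17.96 CPM (adjusted p = 0.239, edgeR), and the groups overlapped. *Ptprc* (CD45) was at 425 and 245 CPM against 249 to 340 CPM, so the sh20 replicates fell on either side of the control range. *Flt3* ranged from 114 to 132 CPM in sh20 and from 93.8 to 211 CPM in *Renilla*. *Il7r*, which the common myeloid gate should lack, had 0.170 and 0.881 CPM against 0.717 to 8.40 CPM. *Cd34*, the remaining marker of the gate, is described with the receptors.

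Across all genes, no gene passed the test in either direction. edgeR's quasi-likelihood test over 13324 genes called 0 lower and 0 higher (0% and 0% of those tested) at a Benjamini-Hochberg adjusted p of 0.05, but the smallest adjusted p was 0.0501 and was shared by many genes. At an adjusted p of 0.1, 416 genes were lower and 144 higher. At an unadjusted p of 0.05 there were 1445 lower genes (10.8%) and 1133 higher genes (8.5%). The count depended on the genes entered: among 10195 genes averaging 50 counts or more, entered alone in an alternative fit, edgeR called 160 lower (1.57%) and 25 higher (0.245%). DESeq2, which differs in its test, normalization and filter together, called 881 lower (5.55%) and 659 higher (4.15%) of 15870, each of the 160 and 25 among them. A gene named below as past the threshold was past it in edgeR's fit with that filter on the mean and not in edgeR's test over all 13324 genes, and these genes were named after their values were seen. In 2241 genes (16.8%) both sh20 libraries lay below all 4 *Renilla* libraries, and in 1733 genes (13%) both lay above. Over all genes tested the median log2 fold change was 0.02, with quartiles of -0.25 and 0.32.

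More calls were left without sh20 C than without sh20 B. Of the 160 lower genes 147 were past the threshold when sh20 C was left out and 0 when sh20 B was left out, and of the 25 higher genes 24 and 0. Over all genes edgeR called 1025 lower and 719 higher without sh20 C, and 4 lower and 4 higher without sh20 B, in each case with 1 sh20 library left that is assumed to vary like the *Renilla* libraries. Without sh20 B the log2 fold change was -4.47 for *Vldlr* and -1.42 for *Csf3r*, the receptors described below, each with an adjusted p of 0.063 (edgeR). In LSK cells 149 of the 160 lower genes had the same sign, with a median log2 fold change of -0.13 there against -0.42 in CMPs, and 15 of the 25 higher genes did.

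Fold changes followed how densely a gene was covered. The counts were made after duplicate alignments had been removed, and 3 and 2 genes were above 1 count per exonic base in the sh20 libraries and 0 were in any *Renilla* library. *B2m*, the light chain of MHC class I, at 0.944 counts per exonic base, had 831 and 818 counts in sh20 and 794, 797, 814 and 815 counts in *Renilla*. These counts were almost the same in all 6 libraries, while the same gene in CPM was at 141 and 144 against 208, 190, 190 and 198, a log2 fold change of -0.46 ± 0.08. Among 3591 genes with up to 0.05 counts per exonic base the median log2 fold change was 0.11. It was -0.16 among 691 genes with 0.3 to 0.5, and -0.31 among 202 genes above 0.5, of which 76.7% were lower without overlap. The median ratio of raw counts, without scaling to the library totals, went from 0.60 on the log2 scale in the sparsest of these groups to 0.19 in the densest. In LSK cells, where the log2 ratio of mean totals was 0.18 against 0.50 in CMPs, the densest group had a median of -0.06. A per-library offset was fitted to this density in the same 6 libraries, a choice made after these data were seen. Medians near 0 follow from that fit, and they lay between -0.03 and 0.04. The offset also takes out any sh20 difference that densely covered genes share, so values with it cannot tell such a difference from one of coverage. With it edgeR called 0 genes (smallest adjusted p = 0.0873). Of the 160 lower genes 103 had over 0.3 counts per exonic base, and of the 25 higher genes 0 did. The part of duplicate removal in these values was not tested. For the named genes above 0.3 counts per exonic base the log2 fold change with this offset is given beside the result, and it was -0.096 for *B2m* and -0.25 for *Kit*.

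**Figure D2:**
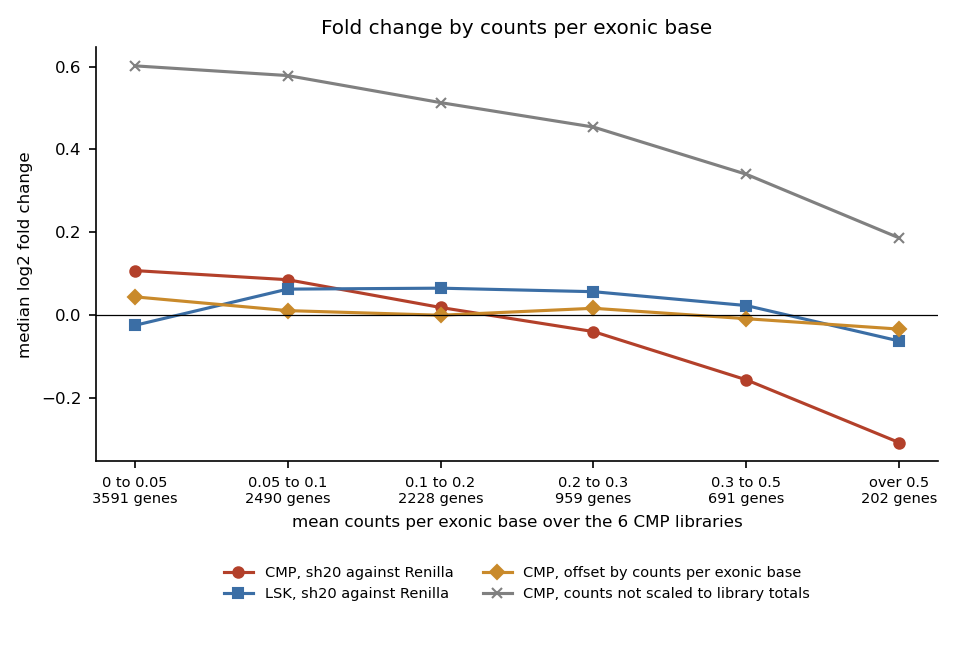
Median log2 fold change, sh20 against *Renilla* (vertical axis), for genes grouped by mean counts per exonic base (horizontal axis, with the number of genes), in CMPs (red), in LSK cells (blue), in CMPs after the offset (yellow) and in CMPs from counts not scaled to library totals (grey). The CMP median went from 0.11 in the sparsest group to -0.31 in the densest. After the offset, fitted to density in these same libraries, it lay between -0.03 and 0.04.

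*Jun*, *Jund*, *Fos* and *Myc*, the immediate early transcription factors with the smallest p-values of their list, lay lower in both sh20 libraries than in every control. *Jun* (ENSMUSG00000052684.4, chr4:95049034-95052222, GRCm38, minus strand), the partner of *Fos* in AP-1, was at 39.3 and 57.1 CPM in sh20 and at 177, 161, 152 and 270 CPM in *Renilla* CMPs. Both sh20 libraries lay far below the control range, with a log2 fold change of -1.98 ± 0.29 (SE; adjusted p = 0.0501 over all genes and 0.0329 with the filter on the mean, edgeR). *Jun* was not densely covered, and the offset left -1.96. *Jund*, the constitutive member of the family, was at 124 and 111 CPM against 199, 184, 177 and 207 CPM (log2 fold change -0.70 ± 0.10, adjusted p = 0.0329 with the filter on the mean, edgeR, and -0.51 with the offset). *Fos* had 0 and 1 count in sh20 and 59, 15, 37 and 193 counts in *Renilla*. Its level was lower by a factor of 215 over the summed libraries, with an exact interval of 38.4 to 8532 that covers counting error only, and the *Renilla* libraries themselves ranged from 3.59 to 46.8 CPM (adjusted p = 0.0845, edgeR). *Myc*, a driver of growth and ribosome production that is induced with these genes, was at 346 and 345 CPM against 496, 449, 429 and 477 CPM. Its log2 fold change of -0.42 ± 0.07 (adjusted p = 0.033 with the filter on the mean, edgeR) came down to -0.12 with the offset, at 0.709 counts per exonic base.

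Of the 30 genes of the AP-1 and immediate early list 24 passed the filter on low counts. Their median log2 fold change was -0.36 (median of all genes 0.02), 10 were lower and 2 higher without overlap, and 9 lower and 1 higher at an unadjusted p of 0.05. Among all genes tested 16.8% were lower and 13% higher without overlap, and 10.8% and 8.5% at that p, and the counts of the lists that follow stand beside these same shares. The median was -0.38 in sh20 B and -0.40 in sh20 C, -0.25 with the offset, and 0.11 in LSK cells. In the test of the difference between cell types *Jun* had an adjusted p of 0.349 and *Fos* of 0.1 (edgeR), so neither was shown to differ between CMPs and LSK cells.

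Several surface receptors were among the genes past the threshold with the filter on the mean. *Csf3r* (ENSMUSG00000028859.14, chr4:126024550-126044440, plus strand), the receptor for G-CSF that drives granulocyte production, was at 17.9 and 23.3 CPM in sh20 against 62.6, 59.0, 59.7 and 66.7 CPM in *Renilla*. The 4 control libraries were close to each other and both sh20 libraries were far below them, with a log2 fold change of -1.59 ± 0.19 (adjusted p = 0.0501 over all genes and 0.0329 with the filter on the mean, edgeR) and -1.68 with the offset. *Cd34* (ENSMUSG00000016494.9, chr1:194938819-194961279, plus strand), the sialomucin of stem and progenitor cells on which the gate is drawn, was at 188 CPM in both sh20 libraries against 311, 342, 300 and 403 CPM, a log2 fold change of -0.85 ± 0.12 (adjusted p = 0.0329 with the filter on the mean, edgeR) and of -0.84 with the offset. *Vldlr*, a lipoprotein and reelin receptor, was at 1.02 and 1.06 CPM, or 6 counts in each sh20 library, against 16.2, 18.2, 34.5 and 26.5 CPM (log2 fold change -4.49 ± 0.51, adjusted p = 0.0329 with the filter on the mean, edgeR).

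*Cd2*, an adhesion molecule of lymphocytes, was at 5.95 and 4.58 CPM against 28.8, 18.9, 20.3 and 25.2 CPM (log2 fold change -2.14 ± 0.34, adjusted p = 0.0419 with the filter on the mean, edgeR). *Itgal*, the integrin chain of LFA-1, was at 84.3 and 84.2 CPM against 123 to 158 CPM (-0.71 ± 0.13, adjusted p = 0.0447 on the same terms), and *Cd47*, the signal against phagocytosis, at 341 and 353 CPM against 421 to 436 CPM (-0.31 ± 0.05, adjusted p = 0.033). Both sh20 libraries lay below all 4 controls for each of these genes. *Ifngr1*, a chain of the interferon gamma receptor, was at 256 and 271 CPM against 320 to 348 CPM, with a log2 fold change of -0.35 ± 0.06 that was -0.14 with the offset. On the other side, *Tnfrsf1b*, a TNF receptor, was at 198 and 120 CPM against 78.2 to 105 CPM (0.82 ± 0.22, adjusted p = 0.117, edgeR). Over the 24 cytokine receptors the median log2 fold change was -0.14, with 5 lower and 2 higher without overlap, but it was 0.06 in sh20 B and -0.32 in sh20 C, so the replicates parted in sign. The 24 homing and adhesion genes had a median of -0.12, -0.02 with the offset, at -0.0039 in sh20 B and -0.17 in sh20 C.

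**Figure D3:**
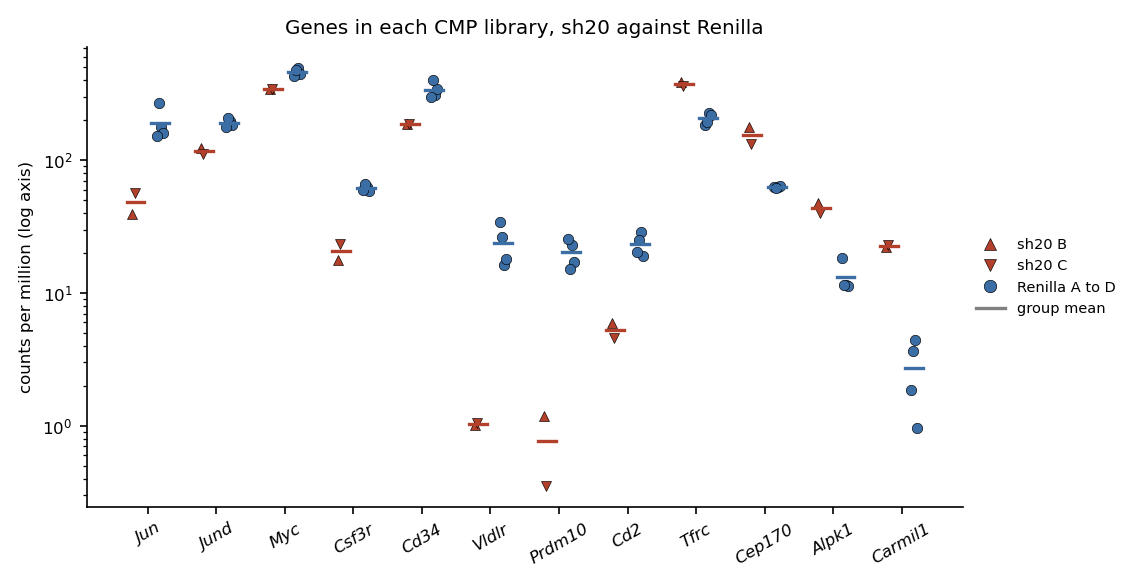
CPM of 12 genes (logarithmic vertical axis) in sh20 B and C (red triangles) and in *Renilla* A to D (blue circles), with group means as bars. For each gene shown the 2 sh20 libraries lay outside the range of the 4 *Renilla* libraries, as for *Csf3r* at 17.9 and 23.3 CPM against 59.0 to 66.7 CPM.

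Among the largest decreases, *Prdm10* and *Plekhm3* stood near 0 in both sh20 libraries. *Prdm10*, a zinc finger transcription regulator, was at 1.19 and 0.352 CPM against 23.1, 17.2, 25.7 and 15.05 CPM, a log2 fold change of -4.66 ± 0.60 (adjusted p = 0.0329 with the filter on the mean, edgeR). *Plekhm3*, a scaffold of the endolysosome, was at 0.340 and 1.76 CPM against 16.8 to 25.4 CPM (-4.37 ± 0.64), and *Zbtb18*, a transcriptional repressor, at 2.21 and 4.23 CPM against 14.6 to 21.9 CPM (-2.43 ± 0.44). *Pum2*, an RNA-binding protein that represses its target mRNAs, was at 16.0 and 17.8 CPM against 34.0 to 51.1 CPM (-1.41 ± 0.25). *Mdga1* was at 71.1 and 54.1 CPM against 131 to 166 CPM (-1.30 ± 0.16), and *Cbfa2t2*, a corepressor of the ETO family, at 36.9 and 30.5 CPM against 64.8 to 91.3 CPM (-1.27 ± 0.20). *Zfp956* (-1.25 ± 0.23) and *Carmil2*, a regulator of actin capping (-1.20 ± 0.21), followed. With the filter on the mean the adjusted p-values of these 8 genes lay between 0.0329 and 0.0486 (edgeR), none had over 0.1 counts per exonic base, and with the offset their log2 fold changes went from -4.51 to -1.28. In LSK cells their log2 fold changes were -0.10 for *Prdm10*, -0.06 for *Plekhm3*, 0.39 for *Zfp956* and between -1.22 and -0.21 for the others.

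None of the 25 genes called higher with the filter on the mean had over 0.3 counts per exonic base. *Carmil1*, a paralogue of *Carmil2*, was at 22.3 and 22.9 CPM against 4.46, 0.956, 1.87 and 3.64 CPM, a log2 fold change of 3.04 ± 0.57 (adjusted p = 0.0463 with the filter on the mean, edgeR). *Alpk1*, an innate immune kinase for bacterial sugars, was at 47.4 and 40.2 CPM against 11.5, 11.2, 18.2 and 11.4 CPM (1.74 ± 0.28). *Cep170*, a protein of the centriole, was at 178 and 133 CPM against 61.9 to 64.1 CPM (1.30 ± 0.14), where the 4 controls were nearly equal and both sh20 libraries were well above them.

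*Nap1l3*, a histone chaperone family member, was at 37.1 and 16.7 CPM against 5.10 to 6.93 CPM (2.15 ± 0.39), *Sh3bp5* at 34.9 and 44.2 CPM against 11.7 to 13.6 CPM (1.62 ± 0.23) and *Fancb*, of the Fanconi anaemia core complex, at 53.4 and 63.4 CPM against 14.6 to 25.9 CPM (1.52 ± 0.25). *Fam168a* (1.503 ± 0.26), *Taf3*, a subunit of TFIID (1.15 ± 0.20), *Nol4l* (1.11 ± 0.17), *Rgcc*, a regulator of the cell cycle (1.08 ± 0.19), *Tanc1* (0.97 ± 0.17) and *Tmx3*, a disulfide isomerase of the endoplasmic reticulum (0.94 ± 0.17), were also higher in both sh20 libraries than in every control. With the filter on the mean the adjusted p-values of these 12 genes lay between 0.0329 and 0.0472 (edgeR), and with the offset their log2 fold changes lay between 0.86 and 3.16. In LSK cells these genes had log2 fold changes between -0.71 for *Alpk1* and 0.56 for *Nap1l3*.

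Most genes of oxidative phosphorylation lay lower in both sh20 libraries than in every control, but edgeR called none of them over all genes. Of 91 genes of the family 85 passed the filter on low counts, with a median log2 fold change of -0.33 (-0.31 in sh20 B and -0.33 in sh20 C), against 0.02 for all genes. The values ran from -0.59 to 2.49, and 9 of the 85 were above 0. In 68 of the 85 both sh20 libraries lay below all 4 *Renilla* libraries and in 1 above, where 16.8% and 13% of all genes did, and 49 were lower and 0 higher at an unadjusted p of 0.05, where 10.8% and 8.5% of all genes were. edgeR called 0 of the 85 and 7 of the 80 averaging 50 counts or more lower (1.57% of all genes in that fit), and DESeq2 called 23 lower (5.55% of all genes). Of the 85 genes 40 had over 0.3 counts per exonic base. With the offset the median was -0.20, and 26 genes were lower and 2 higher at an unadjusted p of 0.05, where 9.29% and 8.04% of all genes were. In LSK cells the median was -0.07.

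By complex, the 37 nuclear-encoded subunits of complex I, which takes electrons from NADH, had a median of -0.29 (-0.16 with the offset), with 29 lower and 0 higher without overlap. *Ndufa9*, near the ubiquinone site, was at 155 and 154 CPM against 194, 197, 188 and 198 CPM (log2 fold change -0.33 ± 0.07, adjusted p = 0.0783, edgeR, and -0.17 with the offset). The 4 subunits of complex II, succinate dehydrogenase, had a median of -0.38 (-0.15 with the offset). *Sdhd*, its membrane anchor, was at 184 and 190 CPM against 256, 249, 234 and 245 CPM (-0.40 ± 0.07, adjusted p = 0.0419 with the filter on the mean, edgeR), and -0.06 with the offset. The 9 genes of complex III had a median of -0.31 (-0.20), and *Uqcrc1*, a core subunit, was at 257 and 261 CPM against 360, 346, 333 and 355 CPM (-0.43 ± 0.06, adjusted p = 0.0329 on the same terms, and -0.29 with the offset).

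The 12 genes of complex IV and cytochrome c had a median of -0.39 (-0.24 with the offset). *Cox4i1*, the regulatory subunit, was at 103 and 104 CPM against 147, 142, 135 and 147 CPM (-0.47 ± 0.09, adjusted p = 0.0526 with the filter on the mean, edgeR, and -0.31 with the offset). The 16 genes of the ATP synthase had a median of -0.36 (-0.26 with the offset), and 10 of them were lower at an unadjusted p of 0.05 with the offset. *Atp5a1*, the alpha subunit of its catalytic head, was at 363 and 370 CPM against 525, 491, 492 and 508 CPM (-0.46 ± 0.05, adjusted p = 0.0329 with the filter on the mean, edgeR), but its raw counts were 2135 and 2101 in sh20 and 2002, 2053, 2107 and 2094 in *Renilla*, and with the offset the log2 fold change was -0.18. *Atp5b*, the catalytic beta subunit, was at 307 and 308 CPM against 397 to 440 CPM (-0.43 ± 0.06, and -0.26 with the offset).

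Of the 13 protein genes of the mitochondrial genome 7 passed the filter, with a median of -0.23 and of -0.05 with the offset. *mt-Cytb*, the only complex III subunit encoded there, was at 180 and 187 CPM against 262, 246, 242 and 251 CPM (-0.45 ± 0.07, adjusted p = 0.0329 with the filter on the mean, edgeR). At 0.907 counts per exonic base its raw counts were 1060 and 1061 against 1001, 1028, 1038 and 1036, nearly equal in all 6 libraries, and the offset left -0.09. *mt-Nd1*, of complex I, went from -0.39 ± 0.07 to -0.05.

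Without the offset, other mitochondrial and metabolic lists had medians nearer to 0 than the -0.33 of the oxidative phosphorylation family. With it, mitochondrial import at -0.19 lay beside the family at -0.20 and beyond complex I at -0.16. The 18 genes of the TCA cycle had a median of -0.10 (-0.03 with the offset), although *Mdh2*, the mitochondrial malate dehydrogenase, was at 204 and 209 CPM against 269 to 296 CPM (-0.44 ± 0.07, and -0.32 with the offset). The 16 genes of glycolysis had a median of -0.22 (-0.15 with the offset), with the smallest p for *Ldha*, which makes lactate from pyruvate, at 165 and 168 CPM against 223 to 246 CPM (-0.48 ± 0.07, and -0.38 with the offset). Of the 77 mitochondrial ribosomal proteins tested 29 were lower and 2 higher without overlap, at a median of -0.10 (-0.09 with the offset). The 30 genes of mitochondrial import and protein quality had a median of -0.22 (-0.19 with the offset), among them *Phb2*, a prohibitin of the inner membrane, at 223 and 226 CPM against 280 to 301 CPM (-0.37 ± 0.06, and -0.25 with the offset). *Gpx1*, the glutathione peroxidase, was at 140 and 141 CPM against 191 to 211 CPM (-0.50 ± 0.08, and -0.26 with the offset), within 21 antioxidant genes whose median was -0.10. *Mdh2*, *Ldha*, *Phb2* and *Gpx1* had adjusted p-values between 0.0329 and 0.0367 with the filter on the mean (edgeR).

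The median of the cytosolic ribosome was the same with and without the offset, and edgeR called 0 of its 79 tested genes. Of these 66 had a negative log2 fold change, and the median was -0.31 in both cases (-0.33 in sh20 B, -0.23 in sh20 C, -0.09 in LSK cells). Without overlap 30 were lower and 3 higher while 46 overlapped, and 14 were lower and 1 higher at an unadjusted p of 0.05, where 10.8% and 8.5% of all genes were. *Rpl4* was at 186 and 194 CPM against 273, 256, 245 and 261 CPM (-0.44 ± 0.07, -0.21 with the offset) and *Rpl8* at 124 and 122 CPM against 162 to 176 CPM (-0.46 ± 0.08, -0.24 with the offset). Both passed with the filter on the mean (adjusted p = 0.0329 and 0.042, edgeR). Ribosomal protein genes have many near-identical pseudogenes, and reads that fit several places were not counted, which leaves their levels uncertain: there were 1.97 and 1.95 such alignments per gene count in the sh20 libraries and 1.66 to 1.81 in *Renilla*.

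The proteasome had a median of -0.25 over 41 genes, of which 30 were lower and 1 higher without overlap, and the median was -0.11 with the offset and 0.00 in LSK cells. *Psma7*, of the core particle, was at 143 and 144 CPM against 199, 194, 193 and 200 CPM (-0.45 ± 0.07, -0.38 with the offset). *Psmb8*, a subunit of the immunoproteasome, was at 163 and 158 CPM against 213 to 221 CPM (-0.44 ± 0.07, -0.36 with the offset), and both had an adjusted p of 0.0329 with the filter on the mean (edgeR). The 19 heat shock and chaperone genes had a median of -0.11. *Hsp90ab1* was at 372 and 385 CPM against 495 to 554 CPM (-0.46 ± 0.06, -0.16 with the offset) and *Calr*, a chaperone of the endoplasmic reticulum, at 284 and 293 CPM against 364 to 384 CPM (-0.37 ± 0.05, -0.14 with the offset), and both had an adjusted p of 0.0329 on the same terms.

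**Figure D4:**
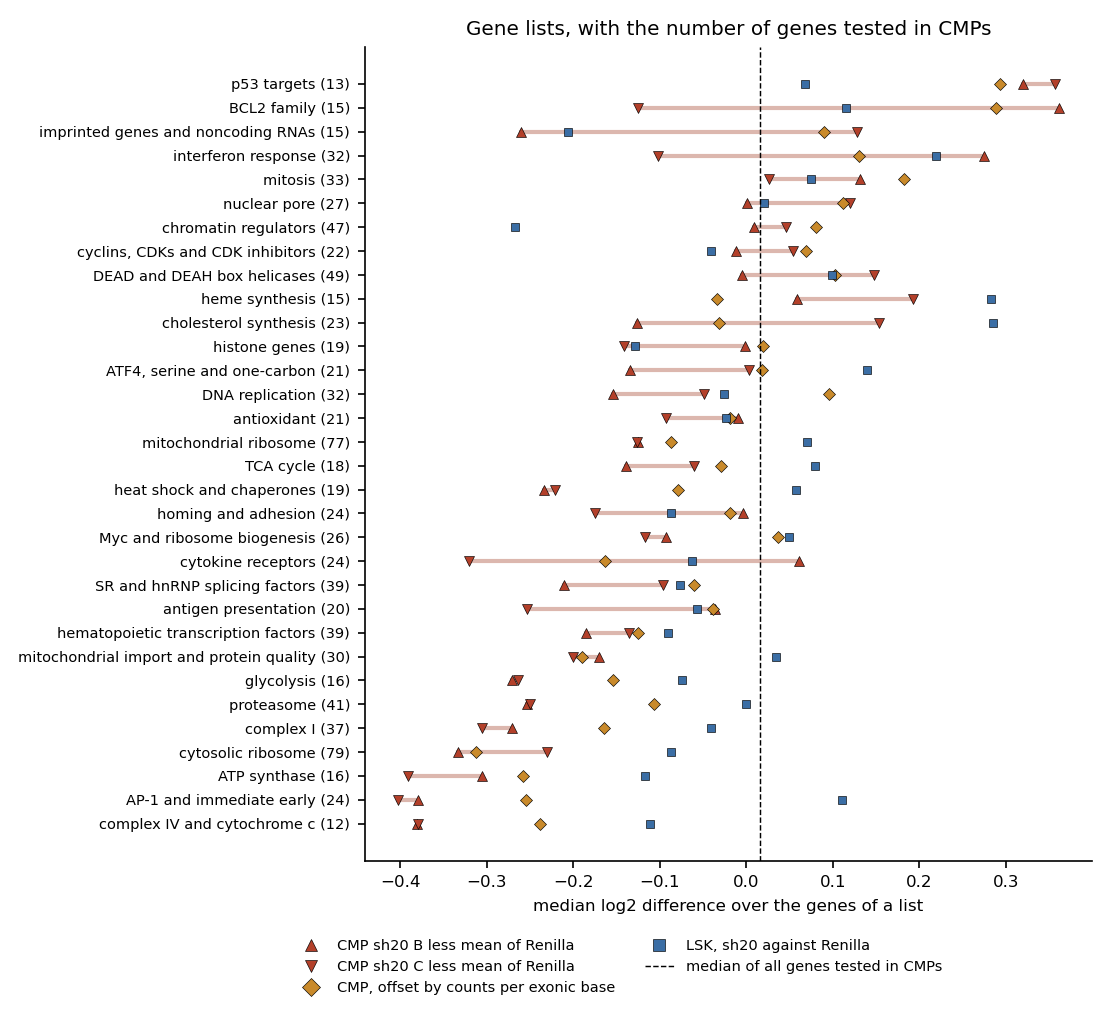
Median log2 difference from *Renilla* over the tested genes of each list (horizontal axis; number of genes in brackets) for sh20 B and sh20 C less the mean of *Renilla* (red triangles), for CMPs after the offset by counts per exonic base (yellow) and for LSK cells (blue), with the median of all genes tested in CMPs as the dashed line at 0.02. The ATP synthase list stood at -0.31 and -0.39 in the sh20 replicates, at -0.26 after the offset and at -0.12 in LSK cells, while the interferon list stood at 0.27 in B and -0.10 in C.

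Erythroid genes moved both ways. *Tfrc* (ENSMUSG00000022797.16, chr16:32608920-32632794, minus strand), the transferrin receptor that brings iron to dividing and haem-making cells, was at 385 and 365 CPM against 228, 219, 185 and 193 CPM. Its log2 fold change of 0.86 ± 0.10 had an adjusted p of 0.0329 with the filter on the mean (edgeR), was 0.89 with the offset, and stood beside 0.61 in LSK cells. The carbonic anhydrases of early erythroid cells were lower, *Car1* at 166 and 177 CPM against 227 to 253 CPM (-0.49 ± 0.07) and *Car2* at 278 and 299 CPM against 368 to 409 CPM (-0.42 ± 0.07), both with an adjusted p of 0.0329 with the filter on the mean (edgeR), and -0.16 and -0.14 with the offset. *Klf1*, the erythroid transcription factor, was at 228 and 225 CPM against 258 to 323 CPM (-0.39 ± 0.10, and -0.05 with the offset). The 12 erythroid genes had a median of 0.12 (0.26 with the offset and 0.58 in LSK cells). The 15 genes of haem synthesis had a median of 0.05 (-0.03 with the offset). At an unadjusted p of 0.05, 4 were higher and 1 lower (8.5% and 10.8% of all genes). *Alas1*, which starts the pathway, was at 134 and 117 CPM against 89.6 to 101 CPM (0.43 ± 0.11), and *Alad*, the next enzyme, at 168 and 179 CPM against 206 to 238 CPM (-0.37 ± 0.08, -0.15 with the offset), with adjusted p-values of 0.112 and 0.0895 (edgeR). *Abcb10* (0.57 ± 0.15) and *Uros* (0.63 ± 0.21) were higher without overlap, with adjusted p-values of 0.115 and 0.179 (edgeR).

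The 39 hematopoietic transcription factors tested had a median of -0.15 (-0.12 with the offset), with 12 lower and 2 higher without overlap. *Lmo2*, the bridging factor of stem and erythroid cells, was at 269 and 265 CPM against 339, 345, 345 and 331 CPM (-0.35 ± 0.05), and *Nfe2*, of megakaryocytes and red cells, at 260 and 265 CPM against 317 to 340 CPM (-0.33 ± 0.06). Both passed with the filter on the mean (adjusted p = 0.0329 and 0.042, edgeR), with -0.06 and -0.12 after the offset. *Lyl1*, a relative of the stem cell factor Tal1, was at 10.9 and 10.7 CPM against 25.7, 27.7, 20.5 and 24.0 CPM (-1.18 ± 0.27, adjusted p = 0.0861, edgeR), a difference that was -1.134 in LSK cells too. The 9 tested markers of granulocyte and monocyte progenitors had a median of 0.31, with *Csf3r* as the single member that was lower without overlap.

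Of the 32 genes of DNA replication 16 were lower and 2 higher without overlap (16.8% and 13% of all genes). *Mcm6* was at 460 and 495 CPM against 577 to 622 CPM (-0.32 ± 0.05, -0.08 with the offset) and *Mcm7* at 219 and 238 CPM against 287 to 298 CPM (-0.34 ± 0.06, -0.26 with the offset), both subunits of the replicative helicase and both past the threshold with the filter on the mean (adjusted p = 0.0378 and 0.0456, edgeR). *Mcm10*, which helps to start the helicase, was at 204 and 194 CPM against 118, 125, 156 and 121 CPM (0.61 ± 0.13, adjusted p = 0.0673 on the same terms). The list had a median of -0.07 (-0.15 in sh20 B and -0.05 in sh20 C), and 0.10 with the offset. The 33 genes of mitosis had a median of 0.10 (0.13 in sh20 B and 0.03 in sh20 C) and of 0.18 with the offset. Of these genes 6 were lower and 7 higher without overlap (16.8% and 13% of all genes). At an unadjusted p of 0.05, 6 were higher, and 13 with the offset (8.5% and 8.04% of all genes). *Smc2*, a condensin subunit, was at 367 and 332 CPM against 254 to 283 CPM (0.37 ± 0.07), and *Mki67*, the proliferation marker, at 284 and 292 CPM against 218, 235, 229 and 175 CPM (0.43 ± 0.12), with adjusted p-values of 0.065 and 0.127 (edgeR).

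Of the 13 p53 target genes tested 5 were higher and 1 lower without overlap, at a median of 0.33 (0.32 in sh20 B, 0.36 in sh20 C, 0.29 with the offset and 0.07 in LSK cells). *Ccng1*, cyclin G1, was at 260 and 240 CPM against 214, 171, 177 and 191 CPM (0.41 ± 0.10), and *Cdkn1a*, the p21 inhibitor, at 20.9 and 35.1 CPM against 18.3, 10.8, 11.2 and 19.2 CPM (0.91 ± 0.37). *Bbc3*, which promotes apoptosis, had a log2 fold change of 0.54 ± 0.18. In the other direction, *Sesn1*, a sestrin, was at 115 and 117 CPM against 140, 154, 147 and 169 CPM (-0.39 ± 0.10). None of these 4 passed, with adjusted p-values between 0.107 and 0.241 (edgeR). *Mcl1*, the survival factor of progenitors, was at 295 and 285 CPM against 202 to 252 CPM (0.33 ± 0.09, adjusted p = 0.127, edgeR, and 0.46 with the offset). The 15 genes of the BCL2 family had a median of 0.36 in sh20 B and -0.12 in sh20 C, so its overall 0.27 was not shared by the replicates.

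Of the 39 SR and hnRNP splicing factors 16 were lower and 2 higher without overlap, 21 overlapped and none passed over all genes. Their median was -0.14 (-0.21 in sh20 B, -0.096 in sh20 C and -0.06 with the offset), 14 were lower at an unadjusted p of 0.05 (10.8% of all genes) and 7 with the offset (9.29% of all genes), and 6 of 38 were called lower with the filter on the mean (1.57% of all genes). *Hnrnpu*, a nuclear scaffold protein, was at 640 and 675 CPM against 908, 848, 846 and 850 CPM (-0.39 ± 0.05, -0.28 with the offset), and *Srsf2* at 292 and 295 CPM against 382 to 431 CPM (-0.45 ± 0.06, -0.21 with the offset), both with an adjusted p of 0.0329 on these terms (edgeR). *Ncl*, nucleolin, which works in ribosome assembly, was at 495 and 488 CPM against 586 to 628 CPM (-0.29 ± 0.05, -0.22 with the offset). The 49 DEAD and DEAH box helicases had a median of 0.07 (-0.0054 in sh20 B and 0.15 in sh20 C), with 8 lower and 13 higher without overlap. *Ddx39b*, which exports mRNA, was at 214 and 218 CPM against 271 to 284 CPM (-0.36 ± 0.06, -0.26 with the offset), while *Dhx29*, which assists translation start, was at 148 and 139 CPM against 78.4 to 101 CPM (0.68 ± 0.12) and *Dhx35* at 70.6 and 62.2 CPM against 18.4 to 34.3 CPM (1.31 ± 0.28). *Ddx39b* and *Dhx29* passed with the filter on the mean (adjusted p = 0.0333 and 0.0489, edgeR), and *Dhx35* did not (0.0671). Chromatin regulators (47 genes) had a median of 0.08 in CMPs and -0.27 in LSK cells, and *Nsd1*, a histone methyltransferase, was at 52.2 and 81.4 CPM against 94.7 to 118 CPM (-0.66 ± 0.20, adjusted p = 0.143, edgeR).

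Antigen presentation genes (20) had a median of -0.14 (-0.036 in sh20 B, -0.25 in sh20 C and -0.04 with the offset). The class I genes *H2-K1*, at 277 and 268 CPM against 362 to 409 CPM (-0.46 ± 0.07, -0.23 with the offset), and *H2-D1*, at 269 and 256 CPM against 339 to 368 CPM (-0.42 ± 0.06, -0.17 with the offset), passed with the filter on the mean (adjusted p = 0.0329 for both, edgeR), and these genes resemble each other so closely that reads between them can be lost or shared. The 32 tested interferon response genes had a median of 0.27 in sh20 B and -0.10 in sh20 C. *Oas3*, a sensor of double-stranded RNA, was at 50.5 and 32.2 CPM against 19.4, 16.5, 21.9 and 17.7 CPM (1.130 ± 0.26, adjusted p = 0.0891, edgeR), and *Oasl2* at 114 and 64.6 CPM against 39.2 to 59.8 CPM (0.85 ± 0.28, adjusted p = 0.173). The 7 T and NK cell markers had a median of -0.39 (-0.29 in sh20 B and -0.40 in sh20 C), with 3 lower and 1 higher without overlap, and *Cd2* was the single member called with the filter on the mean.

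*Spehd* lies between *Rpn1* and *Gata2* on chromosome 6, so the levels of both were examined. *Gata2* (ENSMUSG00000015053.14, chr6:88193891-88207032, plus strand), a transcription factor required by stem cells, was at 483 and 457 CPM in sh20 and at 555, 506, 548 and 560 CPM in *Renilla*. Both sh20 libraries lay below all controls, with a log2 fold change of -0.20 ± 0.06 that did not pass (adjusted p = 0.136, edgeR), and at 0.442 counts per exonic base the offset left -0.02. *Rpn1* (ENSMUSG00000030062.7, chr6:88084482-88105304, plus strand), a subunit of oligosaccharyltransferase, was at 356 and 361 CPM against 468, 412, 449 and 422 CPM (-0.29 ± 0.07, adjusted p = 0.0898, edgeR, and -0.11 with the offset). In LSK cells the log2 fold changes were 0.04 for *Gata2* and 0.00 for *Rpn1*, and the tests of the difference gave adjusted p-values of 0.449 and 0.248 (edgeR). *Gm38708* (ENSMUSG00000108010.1, chr6:88188397-88190681, minus strand), a lincRNA between these genes, had 0 and 5 counts in sh20 and 4, 10, 3 and 2 in *Renilla*, too few to be tested. Over the 6 tested genes around the locus the median was -0.17, and -0.03 with the offset.

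The difference between the sh20 effect in CMPs and that in LSK cells was tested in a fit of 13 libraries, from which the CPM in this and the next paragraph come. edgeR called 24 of 14697 genes lower in CMPs relative to LSK cells (0.163%) and 10 higher (0.068%), and within LSK cells 8 genes were lower with sh20 (0.0544%) and 2 higher (0.0136%). *Csf3r* was among the 24: at 181, 154 and 198 CPM in sh20 against 210 to 219 CPM in *Renilla* LSK cells its log2 fold change was -0.27, a difference of -1.32 ± 0.17 from CMPs (adjusted p = 0.00814, edgeR). *Vldlr* was at 49.8, 74.5 and 45.7 CPM against 80.7 to 107 CPM in LSK cells, and *Prdm10* at 15.7, 29.1 and 27.0 CPM against 16.9 to 31.0 CPM, with differences of -3.78 ± 0.50 and -4.56 ± 0.61 (adjusted p = 0.00814 for both, edgeR). In LSK cells *Csf3r* and *Vldlr* were also below every control library, but by less, and *Prdm10* overlapped with its controls, while both sh20 CMP libraries lay far below theirs for all 3 genes. The log2 differences were -4.41 for *Bambi*, a decoy receptor of TGF-beta, and -4.18 for *Prx*. Both genes were near 0 in sh20 CMPs. *Bambi* was at 0.859 and 0.177 CPM against 9.11 to 15.7 CPM, and *Prx* at 0.687 and 0.531 CPM against 8.22 to 18.9 CPM. *Trib3*, a pseudokinase of the stress response, had 1 count in each sh20 CMP library against 6, 12, 15 and 43 in *Renilla* CMPs, a factor of 26.9 with an exact counting interval of 7.2 to 226, and 23.8 to 35.6 CPM in sh20 LSK cells against 9.33 to 16.0 CPM (adjusted p of the difference 0.0425, edgeR). *Ccdc149* had 2 and 0 counts against 18 to 61 in *Renilla* CMPs, a factor of 51.7 with an exact interval of 14.1 to 431.

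In the other direction, *Unc5a*, a netrin receptor, was at 29.9 and 15.9 CPM in sh20 against 2.70 to 6.31 CPM in *Renilla* CMPs, but at 11.996 to 16.5 CPM against 22.2 to 30.8 CPM in LSK cells, a difference of 3.09 ± 0.47 (adjusted p = 0.0214, edgeR). *Alpk1* (2.45 ± 0.38) likewise lay above the controls in CMPs and below them in LSK cells, at 7.71 to 9.64 CPM against 13.01 to 18.7 CPM. *Atp2b4*, a calcium pump of the plasma membrane, was not higher in CMPs (27.3 and 30.6 CPM against 23.1 to 28.9 CPM), and its difference of 1.55 ± 0.28 came from LSK cells, at 20.5 to 29.99 CPM against 52.9 to 78.7 CPM. *Strn* (1.48 ± 0.25) and *Tanc1* (1.48 ± 0.27) completed the 5 largest among the 9 higher genes that averaged 50 counts or more. Without sh20 C the count of genes past the threshold of the difference was 661 lower and 195 higher, and without sh20 B it was 45 and 19. Leaving out any 1 *Renilla* library of either cell type brought it to between 10 and 16 lower and 2 and 6 higher. No gene of the oxidative phosphorylation family was past the threshold of the difference.

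**Figure D5:**
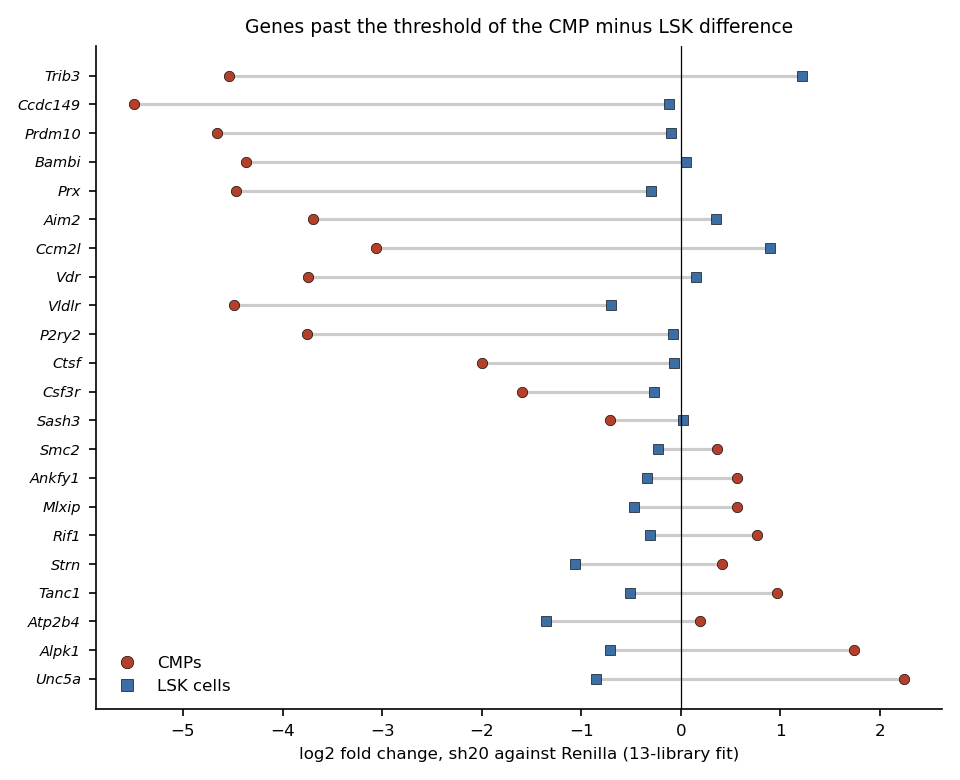
Log2 fold change, sh20 against *Renilla* (horizontal axis), in CMPs (red circles) and LSK cells (blue squares) for the 22 genes past the threshold of the difference that averaged 50 counts or more in the fit of 13 libraries. *Csf3r* stood at -1.59 in CMPs and -0.27 in LSK cells, and *Alpk1* at 1.74 and -0.71.

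Genes with a seed match had median fold changes close to those of other genes. The 3′ UTR sequence that pairs with the sh20 seed, ATAGCAT, was present in 872 genes among those averaging 50 counts or more that have an annotated 3′ UTR, and their median log2 fold change was 0.05 against 0.01 in the 8739 genes without it. Among genes with the longest 3′ UTRs the medians were 0.08 with a site and 0.08 without. For the *Renilla* seed, CTTATCT, 849 genes with a site had a median of 0.09 and 8762 without had 0.01. Gene length went with the fold change: the median went from -0.08 among the 2033 genes with the shortest exonic length to 0.10 among the 2032 with the longest, and from -0.03 to 0.05 with the offset by counts per exonic base.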

How the data were processed

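Bone marrow cells were sorted and their RNA was extracted with DNase treatment, and libraries were made with the SMART-Seq v4 kit. Alignment by the authors was to mm10 with STAR, after which Picard discarded duplicate alignments and HTSeq counted reads per gene. The counts as deposited by the authors are whole numbers without normalization, which sum to 3857980 to 5965155 per CMP library. Reads on no feature took 52.1% to 53.3% of the reads on genes, on no feature or ambiguous, a total that leaves out alignments that were not unique. No strand setting is named beyond the statement that software ran on defaults, which for HTSeq means counting by strand. Deposited counts divided by size factors were not used.

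Counts were tested with edgeR 4.0.16 in R 4.3.3 (quasi-likelihood, TMM, filterByExpr at a count of 10 and a total of 15, Benjamini-Hochberg threshold of 0.05) on 6 CMP libraries. A fit of 13 libraries served for the difference between cell types and for sh20 against *Renilla* within LSK cells. Alternatives used DESeq2 1.42.0 and limma 3.58.1. Log2 CPM used a prior count of 2. Exonic lengths, coordinates and transcripts were those of GENCODE vM21 (GRCm38), in which 53775 symbols were found. Tests were checked on simulated data.

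Named genes were to be the 12 largest changes each way past the threshold, up to 4 genes with the smallest p of each of 49 lists, gate markers, neighbours of *Spehd*, and the 5 largest differences between cell types each way. Since no gene passed, the largest changes were taken from the fit with a mean of at least 50 counts, leaving out predicted genes (Gm and digits, Rik or -ps; 5 of the 160 lower and 1 of the 25 higher). The comparison, its members and the lists were chosen with earlier results of these data known. No label says that replicate letters pair libraries, so letters entered only an alternative.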

Additional observations from a re-analysis of the deposited data

Results flagged for a closer look

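Among the 4 *Renilla* CMP libraries, 1 library stood apart from the other 3 in log2 CPM for 5 of 103 genes examined and for 1 list. The gap to the nearest library, as a share of the range of the 4, was 0.946 for *Alpk1* (18.2 CPM in *Renilla* C against 11.2 to 11.5 CPM), 0.880 for *Tmx3* (59.2 CPM in *Renilla* D against 79.8 to 83.1 CPM), 0.898 for *Mcm7* (298 CPM in *Renilla* A against 287 to 288 CPM), 0.923 for *Hnrnpu* (908 CPM in *Renilla* A against 846 to 850 CPM), 0.845 for *H2-K1* (409 CPM in *Renilla* A against 362 to 369 CPM) and 0.878 for the mean log2 CPM of the haem synthesis list. Each exceeds the critical value of Dixon's test for 4 samples, and chance alone marks about 1 in 20 such groups.

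The sh20 effect differed between CMPs and LSK cells, by edgeR's test of the difference itself, for 13 genes examined. On the log2 scale, CMP minus LSK, the difference was -5.75 for *Trib3*, -5.38 for *Ccdc149*, -4.56 for *Prdm10*, -4.41 for *Bambi*, -4.18 for *Prx*, -3.78 for *Vldlr* and -1.32 for *Csf3r*. *Trib3* and *Ccdc149* had 2 counts over both sh20 CMP libraries, so their fitted differences depend on the prior count. *Bambi* (0.859 and 0.177 CPM) and *Prx* (0.687 and 0.531 CPM) were also near 0 in these libraries. It was 0.59 for *Smc2*, 1.48 for *Strn*, 1.48 for *Tanc1*, 1.55 for *Atp2b4*, 2.45 for *Alpk1* and 3.09 for *Unc5a*. The causes of these differences were not tested.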

How the results depend on the processing

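Over all genes in CMPs edgeR called 0 genes (smallest adjusted p 0.0501) and 2578 at an unadjusted p under 0.05. The counts lower and higher were 238 and 13 with upper quartile normalization, which moved the median of all genes to -0.04; 11 and 4 without the filter on low counts; 160 and 25 among genes averaging 50 counts or more; 881 and 659 with DESeq2; 126 and 39 with limma-voom; and 342 and 124 for the CMP contrast of the 13-library fit. They were 0 with DESeq2's size factors, thinning, or an offset by exonic length, level or counts per exonic base, and without genes above 0.3 counts per exonic base. Leaving out 1 library gave 0 to 1025 lower and 0 to 719 higher: 4 and 4 without sh20 B, 1025 and 719 without sh20 C, and 0 without any of the *Renilla* libraries. The replicate letters as a block (a pairing the labels do not state, with deviations from the group means correlating at -0.093 to 0.15 over 16 pairs of equal letter) gave 0 and 0, with 901 genes at an unadjusted p under 0.05.

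The difference between CMPs and LSK cells, 24 lower and 10 higher, was 100 and 98 without the filter, 225 and 152 with DESeq2, and 6 and 0 with the block, which left none of the genes higher in CMPs. Leaving out 1 library gave 10 to 661 lower and 2 to 195 higher, with both largest counts without CMP sh20 C and 45 and 19 without CMP sh20 B.

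For named genes the direction reversed for *Ly6a* (-0.27 with limma-voom, -0.24 with the block, -0.026 thinned) and *Flt3* (0.11 with the block). Leaving out 1 library also reversed *Ly6a* (-1.69 without sh20 B and -0.021 without *Renilla* A, to 0.93 without sh20 C), *Ptprc* (-0.29 without sh20 B to 0.51 without sh20 C), *F13a1* (-0.035 without sh20 C to 3.30 without sh20 B), *Adgre1* (-0.0091 without sh20 B to 3.26 without *Renilla* C) and *Mecom* (-3.87 without sh20 C to 0.073 without sh20 B). These had not passed the test. The cause of each change of count, and the part of duplicate removal in it, was not tested. Depth limits the precision of genes with few counts.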
